A study of Mus musculus with 4 samples.

Results

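The transcripts of 10 genes were followed: 5 neuropeptide precursors (Sst, Crh, Cartpt, Tac1 and Penk), 2 secretory-granule proteins that are also peptide precursors (Scg2 and Vgf), 2 prohormone convertases (Pcsk1 and Pcsk2) and tyrosine hydroxylase (Th). They are 10 of the 32285 genes in the deposited matrices, and all 10 were found by symbol. The genes were chosen by name, with earlier results of these data known, and for where they were found and how they differed between the groups, so their levels are given here as a description. The cells came from the cerebellum of E14.5 mouse embryos and had been sorted for the red fluorescent protein tdTomato (tdT). The 2 control libraries have the genotype Atoh1-Cre/+; R26LSL-tdT/+. The 2 libraries of the conditional knockout (CKO) of the transcription factor genes En1 and En2, called En1/2 CKO, have the same alleles and, on top of these, En1lox/lox and En2lox/lox. All 4 libraries thus carry the Cre driver and the reporter. Atoh1-Cre marks cells whose ancestors used the Atoh1 enhancer, which include granule cell precursors and excitatory cerebellar nuclei neurons, so deletion is limited to that lineage. Animals were pooled before dissociation with Accutase, so no value belongs to a single embryo, and a p-value measures the spread between pooled libraries only.

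Neuropeptides are made as long precursors, sorted into dense-core vesicles together with granins, and cut there by the convertases encoded by Pcsk1 and Pcsk2. They are released by calcium entry and act on G-protein-coupled receptors. Tyrosine hydroxylase catalyses the rate-limiting step of catecholamine synthesis, and a cell needs further enzymes, Ddc and for noradrenaline Dbh, to finish the pathway. In the developing nervous system, Sst and Th messenger RNA can appear for a time in neurons that do not keep a peptidergic or catecholaminergic identity.

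Several of these genes are textbook targets of cyclic AMP signalling, through the palindromic cyclic AMP response element TGACGTCA, so their promoters were searched for it. RefSeq promoters (GRCm38.p6, 250 bases before to 50 bases after the start) were at hand for 7 of the 10 genes. The element, which reads the same on both strands, was present once in 5 of them: Sst, Th, Scg2, Cartpt and Pcsk1. It was not among the letters of the Tac1 and Pcsk2 windows. Of all 32851 promoters of this length, 588 (1.79%) held it. The 100 bases around each match are shown because Sst and Th, which shared cells, both carry it, as do genes below with other patterns. They read 5′ to 3′ along the gene's own strand, with the element in capitals. The matches describe letters only, and no binding was measured.
Sst, chr16:23890839-23890938, minus strand: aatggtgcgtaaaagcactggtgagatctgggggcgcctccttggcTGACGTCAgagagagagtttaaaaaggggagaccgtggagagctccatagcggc
Th, chr7:142899987-142900086, minus strand: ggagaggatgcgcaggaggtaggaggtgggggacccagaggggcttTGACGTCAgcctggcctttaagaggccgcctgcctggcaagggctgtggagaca
Scg2, chr1:79440041-79440140, minus strand: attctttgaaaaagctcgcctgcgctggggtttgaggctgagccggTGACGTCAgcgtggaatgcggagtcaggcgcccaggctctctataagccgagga
Cartpt, chr13:99900742-99900841, minus strand: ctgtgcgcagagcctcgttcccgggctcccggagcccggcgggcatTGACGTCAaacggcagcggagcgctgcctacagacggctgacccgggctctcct
Pcsk1, chr13:75089733-75089832, plus strand: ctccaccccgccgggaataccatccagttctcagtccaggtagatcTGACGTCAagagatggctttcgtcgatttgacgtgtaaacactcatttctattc
The element began 48 bases before the RefSeq start of Sst, 45 for Th, 68 for Scg2, 112 for Cartpt and 78 for Pcsk1. These starts differ from the ends of the gene spans given below, which are from GENCODE M21. The 100 bases shown for Sst, Th and Cartpt lie within those spans.

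A barcode counted as a cell if it had 500 genes or more, 1000 or more unique molecular identifiers (UMIs, counted molecules) and no more than 10% of them mitochondrial. In the order control 1, control 2, CKO 1 and CKO 2, which is used for every set of 4 values here, this left 2911, 3931, 2007 and 3697 cells, 12546 in all. Their median UMIs were 2734, 2122, 5352 and 5544, so both CKO libraries were deeper per cell than both controls. En2 stood at 136, 167, 29.0 and 19.8 CPM (UMIs of a gene scaled to 1000000 UMIs of the same cells), below both controls in both CKO libraries, and En1 at 238, 382, 150 and 253 CPM, where the groups overlap. These are 3′ tags, and the part of each gene that was deleted is not given in the sources used here, so they do not test the deletion of En1. Control 2 and CKO 1 held haemoglobin RNA in cells with more Pax6 than Meis2 UMIs (1595 and 1245 CPM, against 31.9 and 2.80 in control 1 and CKO 2). A list of 6 erythroid genes, haemoglobin and Alas2, was also read in the Olig2, Tbr1 or Lmx1a and Meis2 > Pax6 classes defined below. It summed to 9638, 5142 and 2058 CPM there in control 2 and to 7.16, 18.3 and 24.9 CPM in CKO 1. In kept cells that fell in no class the list summed to 16994, 14424, 43129 and 16.3 CPM. In all kept cells it was 1254, 4414, 1993 and 3.26 CPM. Kept cells with 10 or more haemoglobin UMIs numbered 4, 29, 4 and 0. Of the kept cells, 36 carried a barcode that also marks a kept cell in another library.

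Each kept cell was put in the first class whose condition it met: any Olig2 UMI, any Tbr1 or Lmx1a UMI, more Meis2 than Pax6 UMIs, or more Pax6 than Meis2 UMIs. The classes are named by these genes alone. No condition was met by 469, 509, 192 and 331 cells, which form no class but stay among all kept cells, and an order of classes below is one of the 4 named classes. The 9 excitatory cerebellar nuclei neuron markers summed to between 2495 and 3255 CPM in the Meis2 > Pax6 cells of the 4 libraries and to between 109 and 468 CPM in the Pax6 > Meis2 cells. That list contains Meis2 itself. The 8 granule lineage markers, Pax6 among them, reached 3114 to 3530 CPM in Pax6 > Meis2 cells but also 1817 to 3166 CPM in Meis2 > Pax6 cells. Of the cells in the Olig2 class, 91 of 112, 281 of 366, 91 of 138 and 106 of 143 had a single Olig2 UMI, so membership there often rests on 1 molecule.

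**Figure D1:**
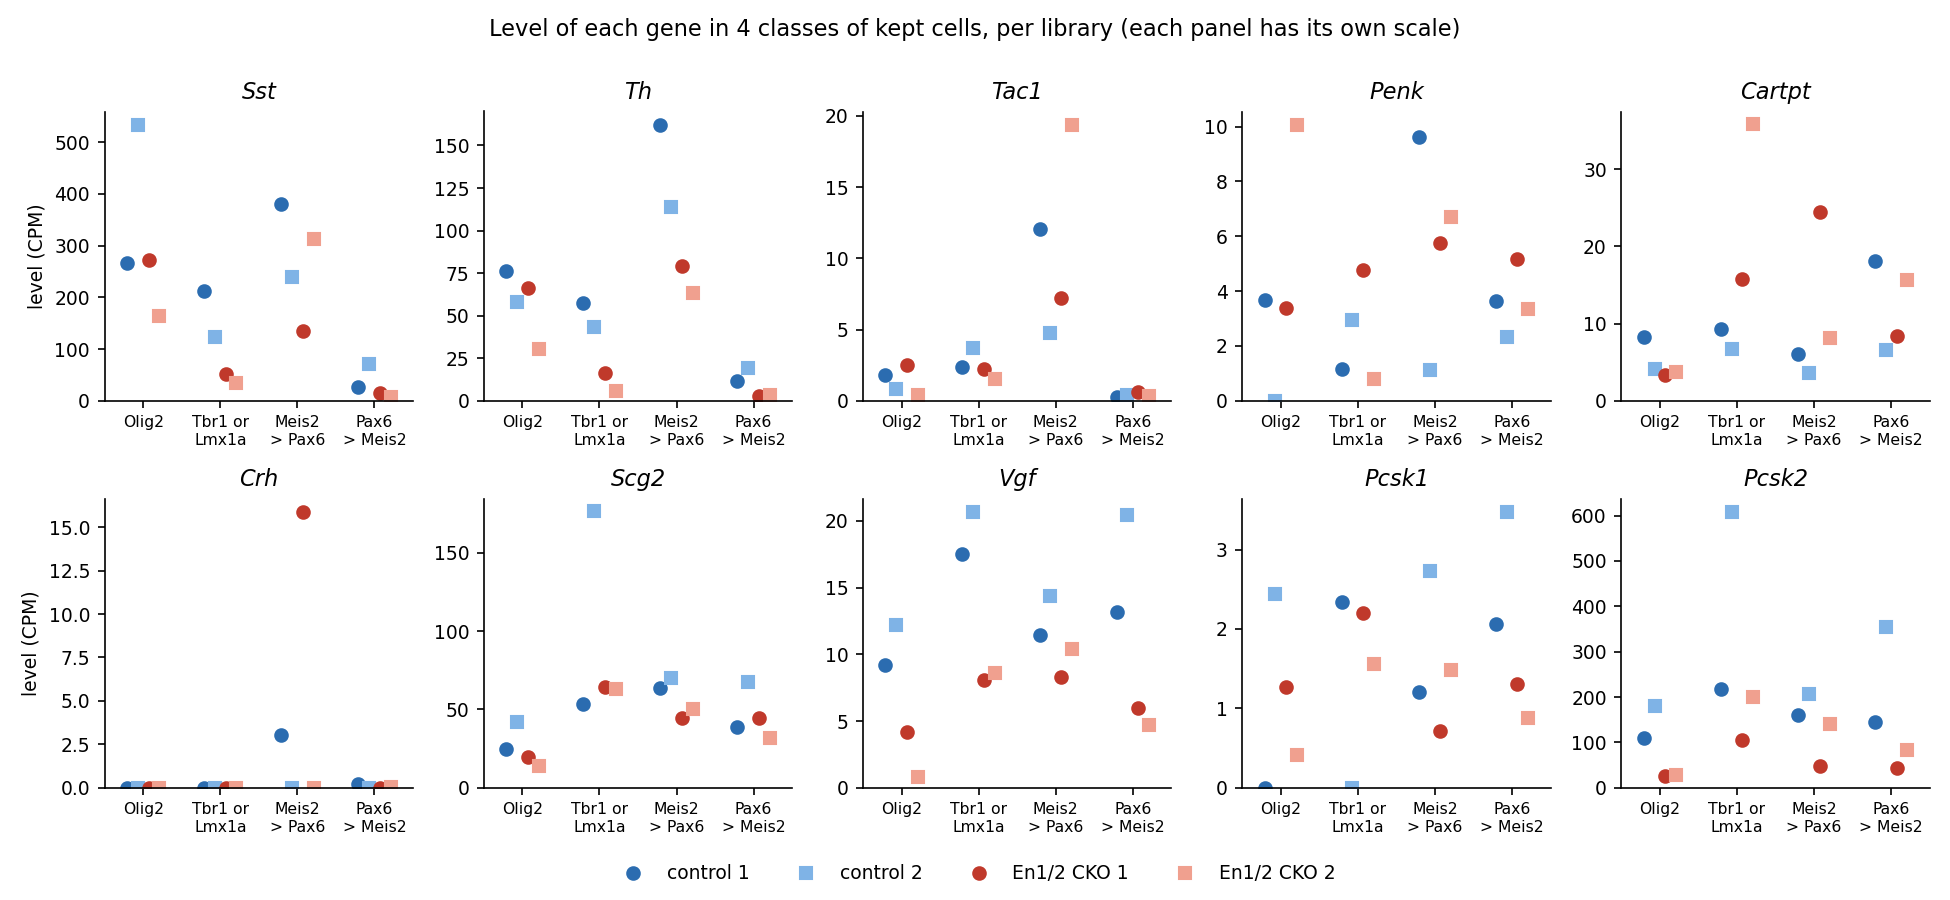
Level of each of the 10 genes (CPM, a separate linear scale in each panel) in the 4 classes of kept cells; each point is 1 library (circles replicate 1, squares replicate 2, blue control, red En1/2 CKO). In all 4 libraries Th and Tac1 are highest in Meis2 > Pax6 cells and Pcsk2 in Tbr1 or Lmx1a cells, among these classes.

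Sst encodes the precursor of somatostatin, an inhibitory peptide (chr16:23889573-23890958, minus strand, GRCm38). It had 1550, 2371, 1403 and 1085 UMIs in the kept cells, or 104, 223, 65.4 and 34.0 CPM. Both CKO libraries lay below both controls. A small set of cells held much of this RNA. Cells with at least 5 Sst UMIs, called Sst-high here, numbered 46, 77, 62 and 44, and they held 61.2%, 48.4%, 85.5% and 76.7% of the Sst UMIs. The largest single-cell values were 114, 164, 108 and 69 UMIs. The line at 5 was not a gap: 66 cells had 4 Sst UMIs and 23 had 5, while 126 had 10 or more.

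The Sst-high cells fell mainly in the Meis2 > Pax6 class, with 105 of the 229, and in the Olig2 class, with 76. These classes had 3059 and 759 cells. By library, 12 of 112, 24 of 366, 23 of 138 and 17 of 143 Olig2 cells were Sst-high. For Meis2 > Pax6 cells it was 24 of 530, 38 of 1789, 25 of 421 and 18 of 319. The part of depth in these counts was not tested. Among cells of no class there were 16 Sst-high cells from control and 4 from CKO libraries, and the Sst level there was 160, 297, 86.6 and 27.6 CPM. The share in the Meis2 > Pax6 and Olig2 classes was 78.3%, 80.5%, 77.4% and 79.5%, alike in all 4 libraries. As levels, Sst reached 266, 533, 272 and 163 CPM in Olig2 cells and 379, 239, 134 and 312 CPM in Meis2 > Pax6 cells. In level, the Olig2 and Meis2 > Pax6 classes do not differ beyond their spread, as each was the highest in 2 of 4 libraries. The Tbr1 or Lmx1a cells had 211, 124, 51.0 and 33.5 CPM. The Pax6 > Meis2 cells were the lowest class in every library, at 27.3, 71.7, 14.6 and 8.13 CPM.

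Sst-high cells often had transcripts of glutamatergic neurons. Slc17a6, the vesicular glutamate transporter VGLUT2, was detected in 182 of the 229, with 64.9% to 88.7% in the single libraries against 16.8% to 37.8% of the other kept cells. Robo3, a receptor of midline-crossing axons, was detected in 178 of the 229 (64.9% to 90.9%, against 10.98% to 31.8%). Olig2 was detected in 76 of 229 (26.1% to 38.6%, against 3.45% to 8.87%). Of the genes that mark GABA synthesis and vesicular uptake, Gad1 was found in 1, Gad2 in 2 and Slc32a1 in 0 of the 229, where 0 allows a share of cells with a UMI of up to 1.31%. In the other kept cells the shares were 0.411% to 0.771% for Gad1, 1.15% to 2.26% for Gad2 and 0.274% to 0.733% for Slc32a1, so these counts do not set the Sst-high cells apart. The Sst-high cells were also deeper, with a median of 6188 UMIs, and the part of depth in these shares was not tested. Scaled to CPM, Robo3 still stood at 843, 934, 488 and 547 in Sst-high cells against 101, 429, 129 and 61.3 in the rest. Meis2 did so in 3 libraries, but in control 2 it was 1191 CPM in the Sst-high cells and 1146 CPM in the others.

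Th (chr7:142892752-142931128, minus strand) had 576, 724, 469 and 259 UMIs in the kept cells, or 38.8, 68.2, 21.8 and 8.12 CPM. Its highest class in each library was Meis2 > Pax6, with 162, 114, 79.3 and 63.3 CPM. Olig2 cells followed at 76.2, 57.7, 66.5 and 30.1 CPM, and Pax6 > Meis2 cells had 11.5, 19.3, 2.78 and 3.26 CPM. Cells with at least 5 Th UMIs numbered 21, 15, 24 and 14, 74 in all. Of these, 37 were Meis2 > Pax6 cells and 22 Olig2 cells, from classes of 3059 and 759 cells. The Th-high cells held 36.5%, 15.3%, 45.8% and 39.4% of the Th UMIs, so in every library most Th RNA lay in cells with under 5 UMIs.

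Th and Sst shared cells. Of the 74 Th-high cells, 50 had an Sst UMI and 35 were also Sst-high. By library the overlap was 9, 2, 19 and 5 cells. That is 19.6%, 2.60%, 30.6% and 11.4% of the Sst-high cells and 42.9%, 13.3%, 79.2% and 35.7% of the Th-high cells. Control 2 had the smallest overlap by either share. Like the Sst-high cells, the Th-high cells often had Robo3 and Slc17a6. Robo3 was found in 64 of the 74 (53.3% to 100% by library, against 11.6% to 32.3% of other kept cells). Slc17a6 was found in 66 of the 74 (73.3% to 95.8%, against 17.3% to 38.2%). The median depth of the Th-high cells was 7753, 4321, 15357.5 and 17118 UMIs, and the part of depth in these shares was not tested.

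**Figure D2:**
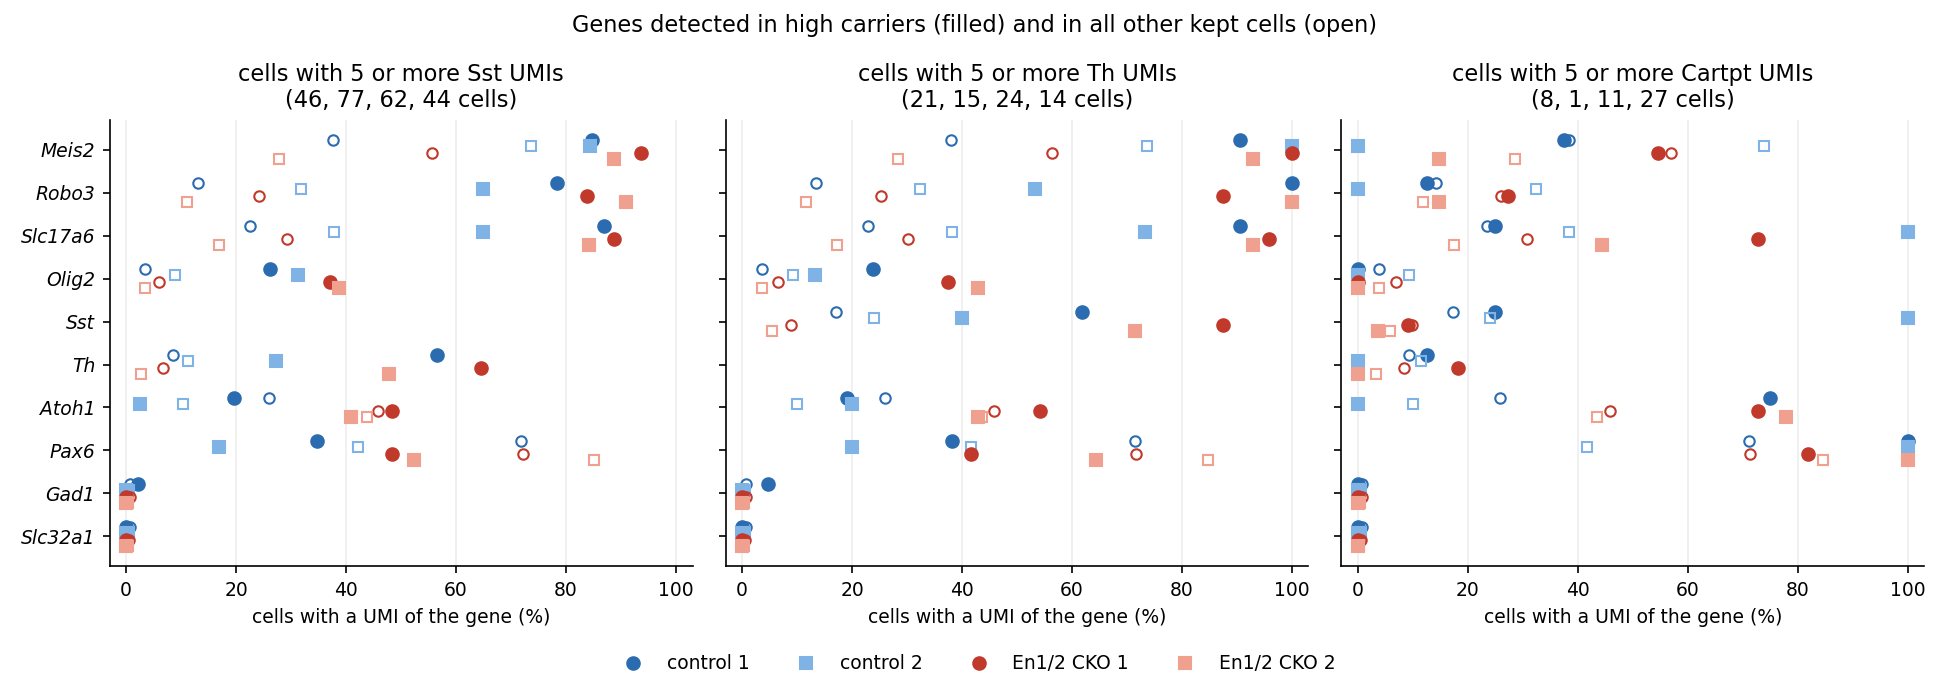
Percentage of cells with a UMI of each gene on the y axis, in cells with 5 or more UMIs of Sst, Th or Cartpt (filled) and in all other kept cells (open), per library; titles give the number of filled cells in the order control 1, control 2, En1/2 CKO 1, En1/2 CKO 2. Slc17a6 and Robo3 lie to the right in Sst- and Th-high cells, Pax6 and Atoh1 in Cartpt-high cells, and Gad1 and Slc32a1 near 0 throughout; control 2 has a single Cartpt-high cell.

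The later enzymes and the transporters of the catecholamine pathway had few UMIs. Dbh, which makes noradrenaline, had 0 UMIs in all 4 libraries, which allows up to 0.202, 0.283, 0.140 and 0.0941 CPM (3 counts per library). Ddc, which makes dopamine, had 11, 4, 5 and 9 UMIs in all kept cells and was detected in 1 of the 74 Th-high cells. By library that was 0% to 7.14%, against 0.102% to 0.277% of other kept cells. So few UMIs cannot show whether Ddc goes with Th. Pnmt, which makes adrenaline, had 1, 0, 0 and 1 UMIs. The plasma-membrane transporters of noradrenaline and dopamine were as sparse: Slc6a2 had 10, 1, 0 and 3 UMIs and Slc6a3 had 1, 1, 3 and 7. The vesicular transporter Slc18a2 had 61, 46, 26 and 146 UMIs, and was found in 2 of the 74 Th-high cells. Slc18a1 had 2, 4, 7 and 9. Phox2a, a regulator of noradrenergic fate, was sparse too, with 1, 0, 0 and 2 UMIs.

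Genes of the tetrahydrobiopterin cofactor and of catecholamine breakdown, which have uses outside catecholamine neurons, were present in every library. In the cofactor arm, Gch1 had 172, 64, 262 and 372 UMIs, Pts had 604, 423, 940 and 1239, and Spr had 360, 88, 541 and 830. The recycling enzymes had 635, 276, 1075 and 1407 UMIs for Qdpr and 88, 35, 214 and 225 for Pcbd1. Of the monoamine oxidases, which degrade catecholamines, Maoa had 189, 106, 286 and 399 UMIs and Maob had 3, 1, 13 and 20. The 8-gene catecholaminergic marker list summed to between 13.7 and 73.4 CPM over the libraries, and Th itself is on that list.

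Sst and Th RNA also lay outside the high carriers, and more so in the control libraries. Barcodes that failed for under 1000 UMIs or under 500 genes, of which no control or CKO barcode had 5 or more Sst UMIs, held 202, 245, 35.1 and 34.1 CPM of Sst. In both controls that is above the level of the kept cells, 104 and 223 CPM. In the same barcodes Th stood at 67.2, 67.7, 33.1 and 8.96 CPM. Split by carrier, the UMIs in Sst-high cells made up 63.8, 108, 55.9 and 26.1 of the Sst CPM of the kept cells, and those in all other cells 40.5, 115, 9.50 and 7.94. For Th the high carriers gave 14.1, 10.5, 10.0 and 3.20 CPM and the other cells 24.6, 57.7, 11.8 and 4.93. For both genes the gap between the lower control and the higher CKO library was narrow in the high carriers and wide in the other cells. The line at 5 UMIs is passed more easily in deep cells. All kept CKO cells together were deeper (median 5352 and 5544 UMIs, against 2734 and 2122), but depth differed by class. Among cells with under 5 UMIs of both genes, the Meis2 > Pax6 medians were 2494, 2058.5, 2657 and 2123 UMIs. Those of the Pax6 > Meis2 cells were 3156, 2243.5, 13328.5 and 9473.5. The part of depth in this split was not tested.

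**Figure D3:**
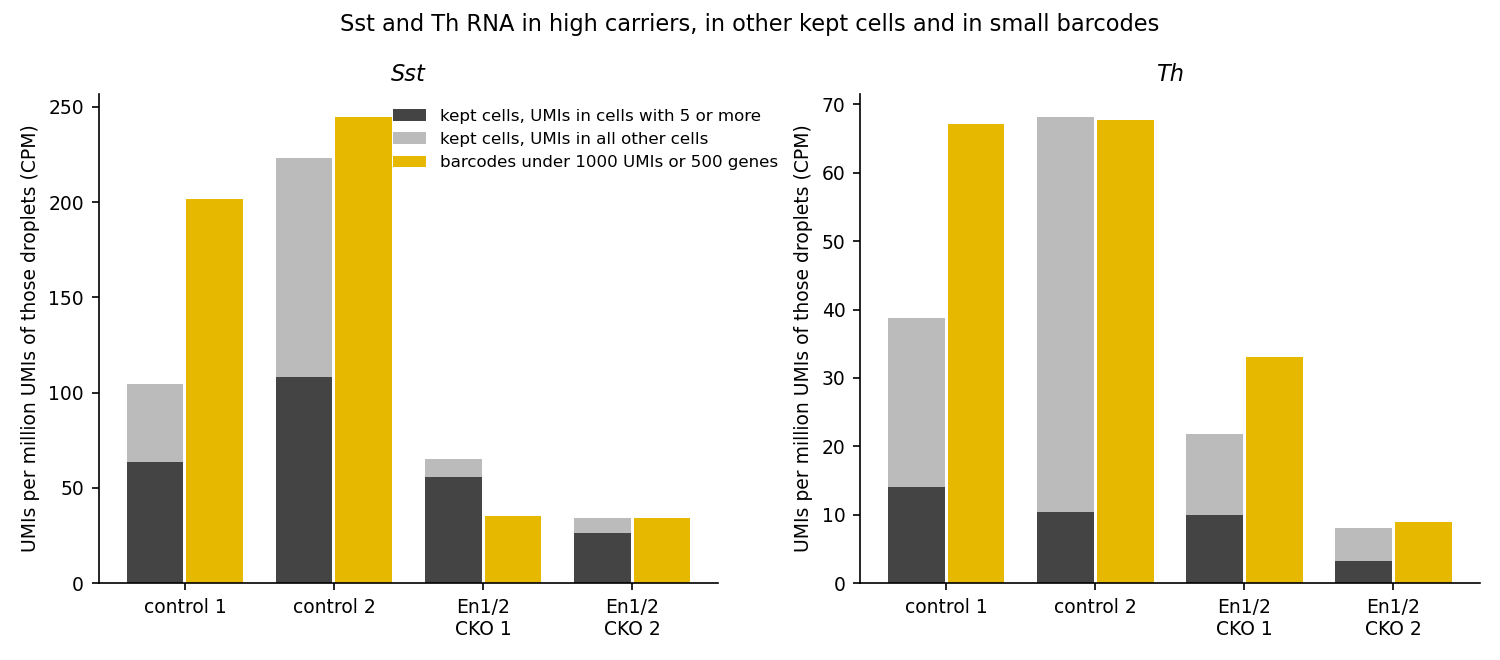
Sst (left) and Th (right) in each library: stacked bars give the CPM of the kept cells that lies in cells with 5 or more UMIs of the gene (dark) and in all other kept cells (light), and yellow bars give the CPM in barcodes under 1000 UMIs or 500 genes. The yellow bars for Sst stand at 202 and 245 CPM in the controls and at 35.1 and 34.1 CPM in the CKO libraries.

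Pax6 > Meis2 cells are an example. In control 1, 226 of 1665 such cells (13.6%) had an Sst UMI, but only 1 had 5 or more. In control 2 it was 139 of 808 (17.2%) with 2 Sst-high cells. In CKO 1 it was 40 of 1013 (3.95%) with 2, and in CKO 2 it was 90 of 2761 (3.26%) with 7. Most of the control cells thus had few copies, while the Sst-high cells held 75.7% and 50.9% of this class's Sst UMIs in the CKO libraries. Among Pax6 > Meis2 cells with under 5 UMIs of both genes, there were 2.65, 3.10, 1.59 and 2.04 Sst UMIs for each Th UMI. In the small barcodes the ratio was 3, 3.62, 1.06 and 3.80, and in Meis2 > Pax6 cells with under 5 UMIs of both genes 1.17, 1.56, 0.75 and 2.04. In Sst-high cells it was 7.18, 24.4, 5.17 and 10.4, but the line at 5 Sst UMIs raises that ratio by itself, so the low-copy and Sst-high ratios are not compared. In control 2, 5 of 29 kept cells with at least 10 haemoglobin UMIs had an Sst UMI, none of them with 5. The part that RNA from outside a cell plays in the Sst and Th levels of the classes was not tested.

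Cartpt encodes the precursor of CART peptides (chr13:99898489-99901091, minus strand). It had 14.7, 4.80, 10.8 and 15.2 CPM in the kept cells, and the groups overlap. Cartpt-high cells, with at least 5 UMIs, numbered 8, 1, 11 and 27. Unlike Sst and Th, 41 of these 47 were Pax6 > Meis2 cells, a class with 6247 of the 12546 kept cells. Of the 47, 45 had Pax6 and 35 had Atoh1, the transcription factor of granule cell precursors, and none had an Olig2 UMI (0 of 47, which allows up to 6.38%, where 3.86% to 6.91% of other cells had one in the 3 libraries with more than 1 Cartpt-high cell). Atoh1 was detected in 72.7% to 77.8% of them in those 3 libraries, against 25.8% to 45.8% of other cells there. The median depth of the Cartpt-high cells was 16307 UMIs, and the part of depth in these counts and shares was not tested. By level, Pax6 > Meis2 was the highest of the 4 classes in only 1 library. In Pax6 > Meis2 cells Cartpt stood at 18.1, 6.56, 8.34 and 15.6 CPM. In Tbr1 or Lmx1a cells it was 9.34, 6.65, 15.8 and 35.9 CPM, and in Meis2 > Pax6 cells 6.02, 3.65, 24.5 and 8.19 CPM, so in those classes both CKO libraries were above both controls. In CKO 1, 3 Meis2 > Pax6 cells held 79.4% of that class's Cartpt UMIs.

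Tac1, the precursor of substance P and neurokinin A (chr6:7554879-7565834, plus strand), was sparse, with 31, 33, 45 and 40 UMIs. Of the 4 classes, Meis2 > Pax6 cells had the highest level in every library, at 12.05, 4.79, 7.21 and 19.3 CPM. The cells of no class had 3.73, 4.74, 7.73 and 3.77 CPM, from 5 UMIs or fewer in each library, which in CKO 1 is above that class. In Pax6 > Meis2 cells it was 0.295, 0.386, 0.618 and 0.307 CPM, from 8 UMIs or fewer in each library. At most 6 Tac1 UMIs were in a single cell. Penk, the enkephalin precursor (chr4:4133531-4138819, minus strand), had 58, 16, 106 and 129 UMIs, or 3.90, 1.51, 4.94 and 4.05 CPM, with 2 cells at 5 or more, both in control 1. No class was highest in more than 2 libraries. A830012C17Rik overlaps Penk on the other strand, and whether counting used strand is not stated.

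Crh, which encodes corticotropin-releasing hormone (chr3:19693401-19695396, minus strand), was the rarest. It had 7, 0, 44 and 1 UMIs in the kept cells, and all 44 of CKO 1 were in 1 cell of 3720 UMIs. In control 1, 5 of the 7 were in 1 cell of 5943 UMIs. Both were Meis2 > Pax6 cells with no UMI of Sst, Th, Gad1, Gad2 or Slc32a1, and neither was among the cells with the highest doublet scores. With most of its kept-cell UMIs in these 2 cells, Crh gives no comparison of groups that rests on more than single cells. In control 1, 1 barcode that failed for its mitochondrial share held 24 Crh UMIs.

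Scg2, secretogranin II, is a granin that helps form dense-core vesicles and is itself cut into peptides (chr1:79434669-79440120, minus strand). It had 41.7, 77.0, 44.4 and 32.8 CPM in the kept cells. It was spread over the 4 classes, with 53.7, 177, 64.6 and 63.2 CPM in Tbr1 or Lmx1a cells, 63.8, 70.2, 44.3 and 50.6 CPM in Meis2 > Pax6 cells, 39.0, 67.5, 44.4 and 31.9 CPM in Pax6 > Meis2 cells and 24.8, 42.3, 19.4 and 13.8 CPM in Olig2 cells. Olig2 was the lowest of the 4 classes in each library. Cells of no class had 41.1, 41.7, 51.0 and 40.2 CPM. Of 139 Scg2-high cells, 82 were Pax6 > Meis2 cells, a class with 6247 of the 12546 kept cells. A Pcsk2 UMI was found in 86 (54.3% to 73.1% by library, against 27.7% to 31.8% of other kept cells). Eomes, a marker of unipolar brush cells, was found in 56 (19.2% to 52.2%, against 7.84% to 16.6%). An Sst UMI was found in 22 (8.51% to 30%, against 5.70% to 24.1%). The median depth of the Scg2-high cells was 4349, 3663.5, 19385 and 14625 UMIs, and the part of depth in these shares was not tested. Vgf, a neurotrophin-inducible granule protein (chr5:137026392-137033351, plus strand), had 13.3, 17.3, 6.29 and 4.89 CPM, and 3 cells had 5 or more UMIs. Both CKO libraries were below both controls. By class it stood at 17.5, 20.7, 8.07 and 8.58 CPM in Tbr1 or Lmx1a cells and at 11.4, 14.4, 8.29 and 10.4 CPM in Meis2 > Pax6 cells.

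Pcsk2, the convertase PC2, was the most widely detected of the 10, in 3870 of the 12546 kept cells (chr2:143546156-143816285, plus strand). Levels were 150, 300, 52.6 and 88.9 CPM, again with both CKO libraries below both controls. Of the 4 classes, Tbr1 or Lmx1a cells were highest in every library, at 217, 609, 106 and 201 CPM. The cells of no class had 152, 297, 109.8 and 158 CPM, above that class in CKO 1. Pax6 > Meis2 cells had 146, 354, 44.1 and 84.2 CPM, Meis2 > Pax6 cells 161, 207, 48.7 and 141 CPM, and Olig2 cells 109, 181, 26.95 and 27.2 CPM. Of its 491 high cells, 441 had Pax6 (83.2% to 97.4% by library, against 39.5% to 84.1% of other kept cells). Eomes was found in 150 (24.7% to 52.8%, against 7.06% to 16.7%) and Olig2 in 14 (0% to 5.31%, against 3.79% to 9.60%). An Sst UMI was found in 55 (3.29% to 16.8%, against 5.84% to 24.6%). The median depth of the Pcsk2-high cells was 4193, 3021.5, 15909 and 12297.5 UMIs, and the part of depth in these shares was not tested. Pcsk2os1 and Pcsk2os2 are annotated on the other strand within Pcsk2 (GENCODE M21). Pcsk1, the convertase PC1/3 (chr13:75089826-75134861, plus strand), had 27, 26, 28 and 28 UMIs, with at most 2 in a cell.

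Control and CKO libraries were compared by edgeR on counts summed per library, with Benjamini-Hochberg adjusted p-values over all genes tested. The log2 fold change, CKO over control, is given with its standard error (SE). None of the 10 genes was called at 0.05 in any class, by fits that recovered 14% to 29% of 2-fold changes in simulated data. Over all genes, the share called was 0% in all kept cells, 0.019% in Olig2 cells, 0.01% in Tbr1 or Lmx1a cells, 0% in Meis2 > Pax6 cells and 0.0514% in Pax6 > Meis2 cells. At an unadjusted p under 0.05 there were 1648 genes among all kept cells and 1275 in Meis2 > Pax6 cells, while DESeq2 called 153 and 98, and edgeR without its filter on low counts 768 and 346. Without control replicate 1 edgeR called 1398 genes in all kept cells and 126 in Meis2 > Pax6 cells. The libraries also differed in makeup: the Meis2 > Pax6 class held 530, 1789, 421 and 319 cells and the Pax6 > Meis2 class 1665, 808, 1013 and 2761. The excitatory cerebellar nuclei list summed to 516, 2044, 722 and 252 CPM in all kept cells. The 9-gene GABAergic list summed to 62.0, 84.2, 22.8 and 27.5 CPM, with at most 1 gene at 0, and was lower in both CKO libraries. Their part in the values for all kept cells was not tested. Summed levels by themselves cannot separate fewer carrier cells from less RNA in each. In Sst-high cells the median Sst level was 2018, 3048, 823 and 1042 CPM. The line at 5 UMIs admits lower CPM in deeper cells, and the part of depth in these medians was not tested.

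For Sst, edgeR's log2 fold change was -1.59 ± 0.45 (SE) in all kept cells (adjusted p = 0.44) and -1.95 ± 0.42 in Pax6 > Meis2 cells (adjusted p = 0.139). It was -1.92 ± 0.34 in Tbr1 or Lmx1a cells. In the classes that hold most Sst-high cells it was smaller, -0.83 ± 0.42 in Olig2 and -0.44 ± 0.35 in Meis2 > Pax6 cells, and the libraries of both groups overlap there. For Th it was -2.14 ± 0.34 in Pax6 > Meis2 cells (adjusted p = 0.0684), the nearest of Th's fits to the threshold, and -0.88 ± 0.24 in Meis2 > Pax6 cells (adjusted p = 0.234). Whether the CKO effect differs between Meis2 > Pax6 and Pax6 > Meis2 cells was tested by an interaction term. No member among the 9 tested, which include Crh with its few cells but not Pcsk1, was called, beside 0.207% of all genes. The difference was 1.14 ± 0.34 for Th (edgeR adjusted p = 0.421) and 1.36 ± 0.57 for Sst (edgeR adjusted p = 0.767).

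Pcsk2 had -1.55 ± 0.41 in all kept cells and -2.37 ± 0.34 in Olig2 cells (edgeR adjusted p = 0.102), where only 470 Pcsk2 UMIs were counted in the 4 libraries. Vgf had -1.32 ± 0.30 in all kept cells and -1.49 ± 0.31 in Pax6 > Meis2 cells (edgeR adjusted p = 0.129). Scg2 had -0.49 ± 0.34 in all kept cells. Cartpt had 0.53 ± 0.48 in all kept cells, 1.68 ± 0.52 in Tbr1 or Lmx1a cells and 1.98 ± 0.54 in Meis2 > Pax6 cells (edgeR adjusted p = 0.234 in the last). Penk had 0.85 ± 0.49 and Pcsk1 -0.84 ± 0.48 in all kept cells.

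Both CKO libraries were below both controls for 5 of the 9 members tested in all kept cells, where 24.4% of all genes were. The count was 3 of 5 in Olig2 cells (all genes 20.2%), 4 of 6 in Tbr1 or Lmx1a cells (21.8%), 4 of 8 in Meis2 > Pax6 cells (20.9%) and 5 of 8 in Pax6 > Meis2 cells (23.6%). Since the members were chosen with such differences known, these counts support nothing further. Crh did not pass the filter in any fit of a single class or of all kept cells, and Cartpt, Tac1, Penk and Pcsk1 passed the filter on low counts only in some. DESeq2, and edgeR without its filter, called Sst, Th, Vgf and Pcsk2 in all kept cells, beside 153 of 14139 and 768 of 22358 genes. DESeq2 also called Sst, Th and Vgf in Pax6 > Meis2 cells, Pcsk2 in Olig2 cells and Sst in Tbr1 or Lmx1a cells. Over all genes it called 93 of 11767, 21 of 9299 and 12 of 5736 in those classes.

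**Figure D4:**
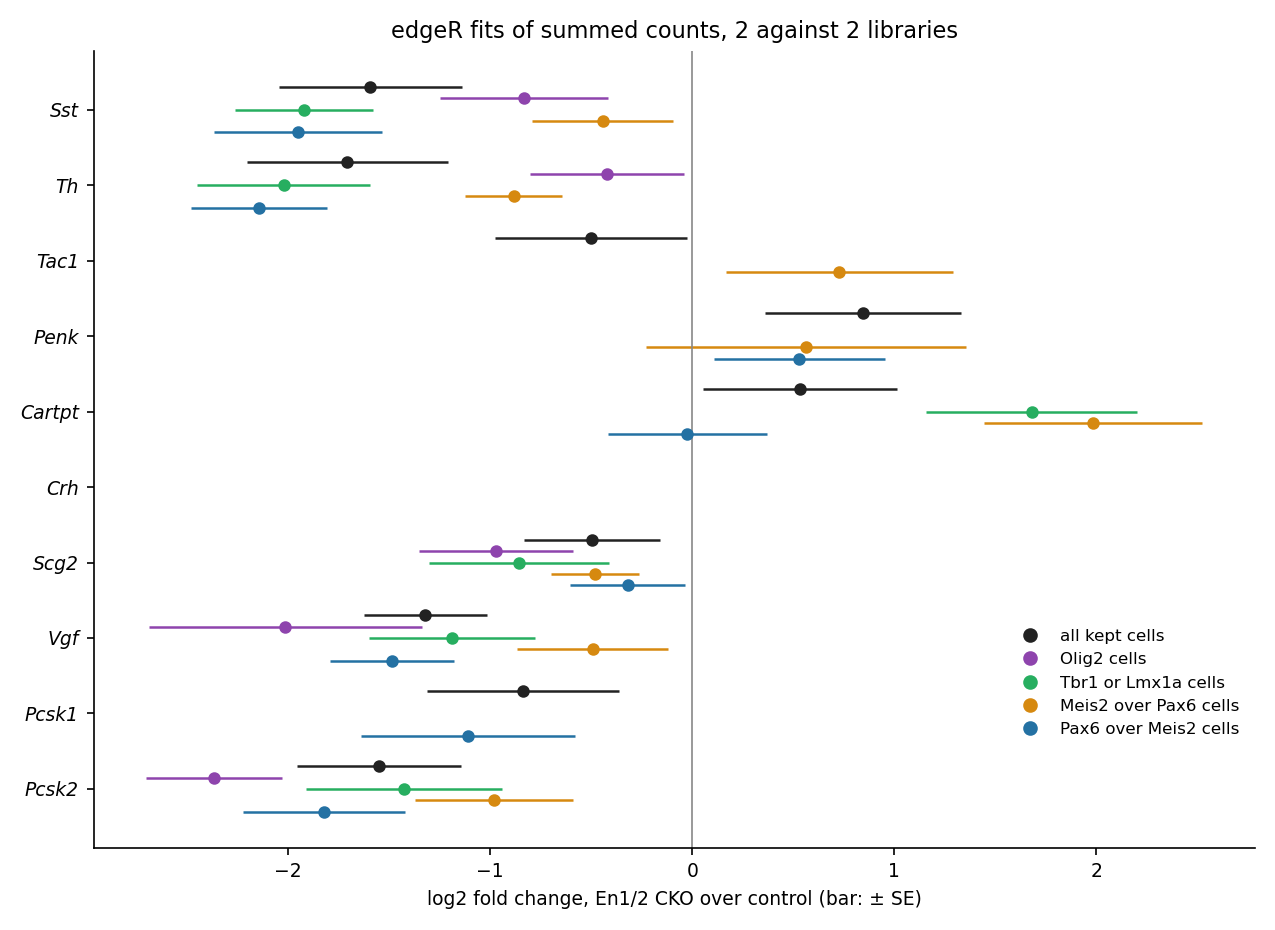
Log2 fold change of each gene, En1/2 CKO over control (x axis), from edgeR fits of 2 against 2 libraries in all kept cells and in the 4 classes; bars are ± SE, and a gene without a point in a class did not pass the filter on low counts. Points for Sst, Th, Vgf and Pcsk2 lie left of 0 in each class and none reached an adjusted p of 0.05.

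Shares of cells move with depth, so each cell was also thinned to 1000 UMIs. Cells with an Sst UMI were then 8.31%, 13.7%, 4.33% and 2.33%, a mean of 11.03% ± 3.84 in the controls and 3.33% ± 1.42 in the CKO (SD, n = 2 each, exact permutation p = 0.33). That is the smallest two-sided p that 2 against 2 libraries allow, so this test cannot pass 0.05. Unthinned, the shares were 17.3%, 24.1%, 9.82% and 5.73%. Cells with 2 or more Sst UMIs after thinning were 1.68%, 3.38%, 1.25% and 0.703%. The counted Sst-high cells gave another order: 15.8, 19.6, 30.9 and 11.9 per 1000 kept cells, highest in CKO 1 and lowest in CKO 2, from libraries of unlike depth. Intact cells are those with 4000 or more UMIs and up to 5% of them mitochondrial. Among these the Sst-high cells were 32.3, 67.4, 53.1 and 19.0 per 1000, with the groups overlapping. Barcodes with 5 or more Sst UMIs that failed for their mitochondrial share numbered 14, 21, 6 and 2, and are not in these counts.

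Thinned shares for Th were 3.95%, 6.41%, 2.24% and 1.05%, and for Pcsk2 16.4%, 19.6%, 8.52% and 12.7%. In both, each CKO library was below each control. For Scg2 the thinned shares were 5.21% ± 0.514 and 4.92% ± 1.22 and overlapped, whereas unthinned they were 11.9% ± 0.469 in the controls and 17.0% ± 4.00 in the CKO (SD, n = 2 each). The direction for Scg2 thus turned with depth.

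**Figure D5:**
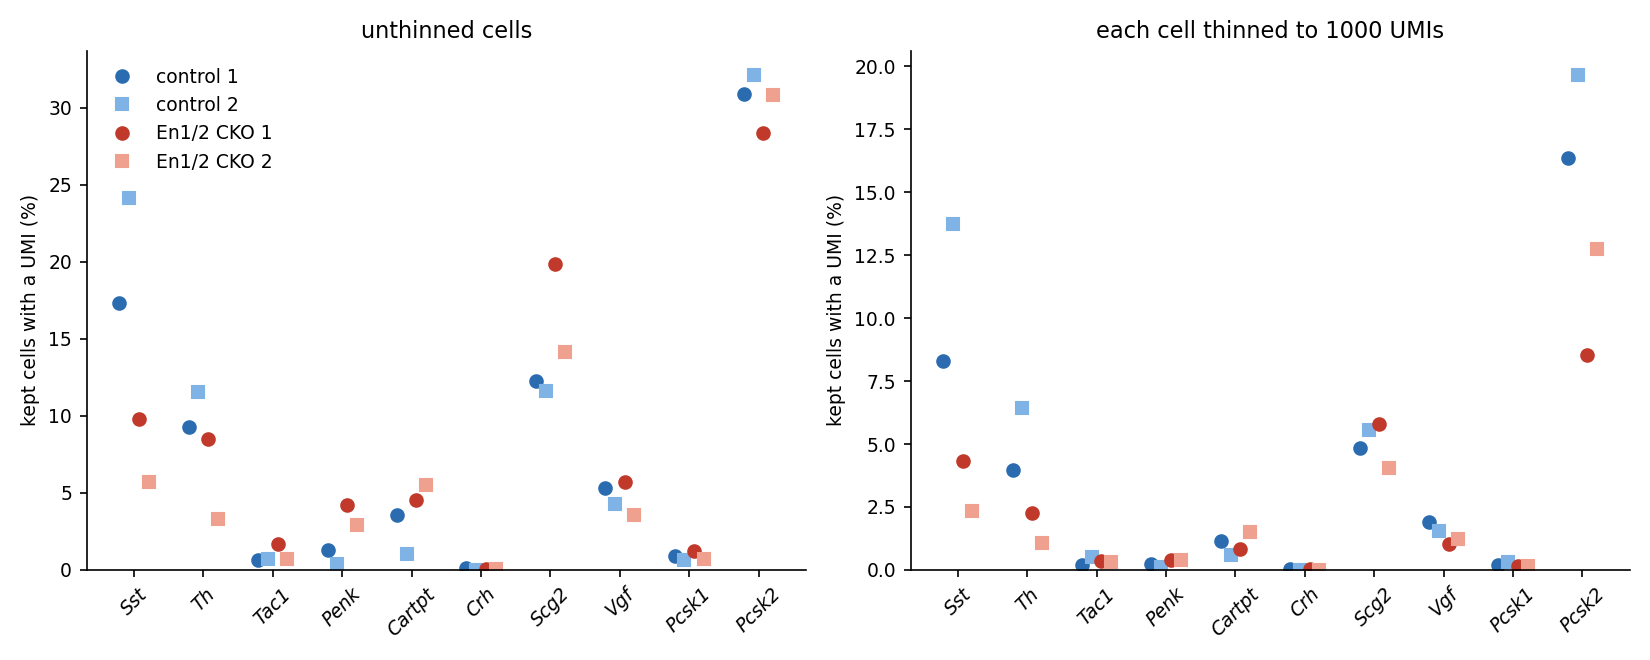
Percentage of kept cells with at least 1 UMI of each gene, per library, in unthinned cells (left) and after thinning each cell to 1000 UMIs (right). For Scg2 both CKO libraries are above both controls on the left and the groups overlap on the right, while Sst is lower in both CKO libraries on both sides.

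Other genes of peptide handling were read from the same fits, as lists chosen with earlier results known. None of their genes was called by edgeR in any class. Of 15 granins and processing enzymes, all 15 were tested in all kept cells, 14 had a log2 fold change under 0 and 7 had both CKO libraries below both controls (24.4% of all genes did), with a median of -0.50 against -0.01 over all genes. In Pax6 > Meis2 cells it was 14 of 15, with a median of -0.67. Of 22 genes of dense-core vesicle release, 21 were tested in all kept cells and 9 had both CKO libraries below both controls, again beside 24.4% of all genes, with a median of -0.25. Of 17 catecholamine genes, 9 were tested, 1 was under 0, 7 had both CKO libraries above both controls (25.4% of all genes did) and the median was 0.57. Of 44 receptors, 15 were tested, with a median of -0.41. Of 38 other peptide precursors, 12 were tested, with a median of -0.05.

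The somatostatin receptor Sstr2 was abundant, with 1692, 1371, 2977 and 2685 UMIs, and its log2 fold change was 0.01 ± 0.29 in all kept cells. Among other peptide precursors, Adcyap1, which encodes PACAP, had 352, 1106, 1402 and 679 UMIs. Both genes were named after their values were seen, for their counts.

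Genes with a like pattern were sought over the 16 sums of 4 classes by 4 libraries, by Pearson's r of log2(CPM + 10). The points share libraries and depth, so r is a description. For Sst the 3 highest of 7147 genes were the axon guidance receptor Nrp1 (r = 0.95), Th (0.91) and Robo3 (0.91). For Th they were Sez6 (0.95), Nrp1 (0.94) and the transcription factor Onecut1 (0.92). For Pcsk2 they were Mgat5b (0.96), Caml (0.95) and the adhesion molecule L1cam (0.94). For Vgf they were Xbp1 (0.95), the synaptic vesicle protein Syp (0.93) and Clvs1 (0.93), and for Scg2 the sodium channel Scn9a (0.93), Dnm2 (0.90) and Naa35 (0.89). For Tac1 they were Epm2aip1 (0.92), Sorcs3 (0.91) and Rpgrip1l (0.91). The sparse genes had lower values: at most 0.77 for Penk (Heatr3), 0.75 for Cartpt (Ppp1r1a) and 0.70 for Pcsk1 (Pttg1ip).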

How the data were processed

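Libraries were made with 10x Genomics Chromium 3′ chemistry from tdT-sorted cells. Each matrix holds raw counts of UMIs per gene and barcode as deposited by the authors, made with Cell Ranger 5.0.0 and build mm10, per the submitters' processing notes; doublet removal is not stated. The 10 genes, the gene lists, classes and tests were chosen with earlier results of these data known. Every gene of the 10 is named, as are the catecholamine genes, except 2 not reported here; of each list, called genes would be named, up to 5 per class. The 3 most alike genes needed a mean of at least 20 CPM.

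Doublets were scored within each library but not removed, except in an alternative. Counts were summed per library and class and tested, two-sided, with edgeR 4.0.16 (quasi-likelihood F test, TMM, filterByExpr; R 4.3.3). The SE was derived from the log2 fold change and F. Alternatives were DESeq2 1.42.0, total counts in place of TMM, no filter, a replicate block, each library left out, intact cells, doublets removed and classes from thinned cells. The fits were tested on simulated data. Shares were compared by an exact permutation test (scipy 1.17.1, Python 3.11.15). Limits for counts of 0 use 3 counts and cover counting error only. Library totals were 21351661, 14998150, 27138010 and 33709450 UMIs. Gene coordinates come from GENCODE M21 (GRCm38).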

Additional observations from a re-analysis of the deposited data

How the results depend on the processing

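Calls among all genes depended on the fit. In the order all kept, Olig2, Tbr1 or Lmx1a, Meis2 > Pax6 and Pax6 > Meis2 cells, edgeR called 0, 2, 1, 0 and 7 genes, DESeq2 153, 21, 12, 98 and 93, edgeR without a filter 768, 0, 223, 346 and 335, in intact cells 0, 3, 2, 15 and 3, and with doublets removed 0, 4, 1, 6 and 8. Classes from thinned cells gave 36, 26, 3 and 3 in the 4 classes, and total counts in place of TMM changed no count. With 1 library left out, where the lone library is taken to vary like the other group, the counts ran from 0 to 1398, 28 to 1308, 0 to 822, 0 to 228 and 28 to 341.

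With the replicate number as a block the counts were 0, 0, 1, 122 and 0. Same-numbered libraries deviated in opposite directions (correlation -0.30 over the genes tested in all kept cells), and crossed numbers, added after seeing this, gave 885, 449, 174, 654 and 352.

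Of the 36 fitted values of the 10 genes, none passed 0.05 in the fits reported. DESeq2 passed 9, edgeR without a filter 15, the replicate block 1 (Pcsk2 in Meis2 > Pax6 cells) and crossed numbers 16. Over all genes in all kept cells, these settings called 153 of 14139, 768 of 22358, 0 of 14710 and 885 of 14710. Classes from thinned cells passed 2 of 25, intact cells 1 of 31, and total counts in place of TMM and doublets removed 0. The members were chosen with group differences known, so these counts support nothing further. Of the 36 values, 26 kept their sign under every alternative run, among them all fits of Vgf and Pcsk2. Scg2 turned in intact cells, to 0.37 in all kept, 1.42 in Tbr1 or Lmx1a and 0.38 in Pax6 > Meis2 cells. Tac1 turned to 1.43 in intact cells of all classes, and Th in Olig2 cells to 0.10 in classes from thinned cells. Cartpt in Pax6 > Meis2 cells, -0.03 as reported, turned to 0.033 with DESeq2, 0.015 with the replicate block, 0.11 with crossed numbers and 0.13 in classes from thinned cells. With 1 library left out, signs turned within -0.86 to 0.050 (Scg2, all kept), -1.40 to 0.31 (Scg2, Tbr1 or Lmx1a), -0.66 to 0.12 (Scg2, Pax6 > Meis2), -0.019 to 1.58 (Cartpt, all kept), -0.52 to 1.05 (Cartpt, Pax6 > Meis2), -1.09 to 0.052 (Th, Olig2), -0.55 to 2.37 (Penk, Meis2 > Pax6), -0.0096 to 1.37 (Tac1, Meis2 > Pax6) and -1.11 to 0.039 (Sst, Meis2 > Pax6). The cause was not tested.

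The difference in shares of all kept cells, CKO minus control in percentage points, turned in unthinned cells for Scg2 (5.07), Tac1 (0.52), Pcsk1 (0.18) and Crh (-0.013), and for Crh also at 2000 UMIs (-0.019). Depth limits Crh, Tac1, Penk and Pcsk1 most, each with at most 129 UMIs in a library.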
